A study of Mus musculus with 2 samples.

Results

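Collagens are the main structural proteins of the extracellular matrix, and 44 collagen chain genes of the mouse were followed here in the sigmoid colon, which lies just above the rectum. The members were taken by gene symbol, by a rule that uses no measured value, and all 44 were found among the 43346 Ensembl genes in the deposited tables. The tissue came from 1 adult female C57BL/6J mouse aged 10 weeks, with no treatment and no altered gene named in the labels. Polyadenylated RNA of this animal was sequenced in 2 technical libraries, numbered 1 and 2 in the labels. The labels date library 2 to 2015 and describe it as an addition to data published before; they give no date for library 1. Both belong to 1 group, so no conditions and no mice were compared. Each SD or test covers only the difference between these libraries of the same animal.

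Collagen chains wind around each other into rod-like helices, which need glycine at a fixed interval because only the smallest residue fits at the centre. Fibrillar collagens (types I, II, III, V, XI, XXIV and XXVII) form the cables that give the bowel wall its tensile strength, type IV collagen forms the sheet-like net of basement membranes under epithelium and around muscle cells, vessels and glia, and type VI collagen forms beaded filaments between cells and fibres. FACIT collagens decorate the surface of fibrils, multiplexins lie at basement membranes, and transmembrane collagens stay anchored in the cell surface. In the gut wall fibroblasts and smooth muscle cells are the main makers of these chains.

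The repeat that defines the family is shown in 90 bases of coding sequence from the start of the longest uninterrupted helical run of 6 chains, chosen because their values carry the results below. Capitals mark the glycine codons. The sequences are the coding strand of GENCODE M21 transcripts on GRCm38, the assembly also called mm10.
Col3a1: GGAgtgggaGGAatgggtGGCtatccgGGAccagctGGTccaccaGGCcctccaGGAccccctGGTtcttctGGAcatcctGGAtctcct
Col1a1: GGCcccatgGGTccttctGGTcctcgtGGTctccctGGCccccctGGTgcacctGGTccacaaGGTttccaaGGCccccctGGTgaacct
Col1a2: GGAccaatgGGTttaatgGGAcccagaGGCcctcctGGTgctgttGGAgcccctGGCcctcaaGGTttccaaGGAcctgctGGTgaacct
Col5a3: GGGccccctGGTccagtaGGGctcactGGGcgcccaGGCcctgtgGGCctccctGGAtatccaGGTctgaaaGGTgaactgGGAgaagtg
Col4a1: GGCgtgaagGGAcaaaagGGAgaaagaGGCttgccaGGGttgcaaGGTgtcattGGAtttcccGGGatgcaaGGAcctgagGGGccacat
Col8a1: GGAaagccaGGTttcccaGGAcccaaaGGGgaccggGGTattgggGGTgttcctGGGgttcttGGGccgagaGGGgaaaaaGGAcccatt
In each stretch a glycine codon opens every unit of 3 codons. Of the fibrillar genes, 9 had a run of 337 to 344 such units without a break, while the longest run in the 6 type IV genes was 39 to 66 units, and each gene held 22 to 27 runs separated by interruptions, counting runs of at least 5 units. G or C made up 60.9% of the bases of the Col3a1 run and 65.4% of the Col5a3 run. The share was 62.0% for Col1a2, 65.2% for Col1a1, 58.9% for Col4a1 and 62.3% for Col8a1. At the last base of each codon G or C stood in 23.5% of codons in Col3a1, 28.7% in Col1a2 and 31.6% in Col1a1. It stood there in 35.8% in Col4a1, 38.8% in Col8a1 and 45.7% in Col5a3. These figures describe the reference sequence. The GC content of a transcript moved with its ratio between the libraries, as described further on. The shares at the last base did not keep the order of these ratios: Col8a1 had a greater share than Col1a1 and a lower ratio.

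The genes Col4a1 and Col4a2, which encode the chains of the most widespread type IV collagen, lie head to head on chromosome 8 and overlap by 22 bases. Col4a1 occupies 11198423 to 11312826 on the minus strand and Col4a2 occupies 11312805 to 11449287 on the plus strand of GRCm38. Their promoter windows, 250 bases before to 50 bases after each gene start in RefSeq (GRCm38.p6), are shown because they overlap. Each is written on its own gene's strand, and the capitals mark the 78 bases that both windows cover, which are reverse complements of each other.
Col4a1 promoter, chr8:11312777-11313076, minus strand: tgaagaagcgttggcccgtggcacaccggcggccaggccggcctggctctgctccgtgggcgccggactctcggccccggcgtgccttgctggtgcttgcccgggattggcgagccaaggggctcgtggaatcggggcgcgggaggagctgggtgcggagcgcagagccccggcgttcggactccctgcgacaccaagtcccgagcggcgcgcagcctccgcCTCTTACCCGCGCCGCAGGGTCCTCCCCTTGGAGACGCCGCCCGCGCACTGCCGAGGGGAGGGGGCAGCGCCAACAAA
Col4a2 promoter, chr8:11312555-11312854, plus strand: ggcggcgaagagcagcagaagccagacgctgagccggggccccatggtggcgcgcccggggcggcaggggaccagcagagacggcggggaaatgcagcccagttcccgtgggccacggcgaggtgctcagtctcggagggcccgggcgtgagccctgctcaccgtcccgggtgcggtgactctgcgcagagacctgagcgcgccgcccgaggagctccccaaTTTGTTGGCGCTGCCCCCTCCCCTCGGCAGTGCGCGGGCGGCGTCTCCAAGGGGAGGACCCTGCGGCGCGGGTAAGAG
RefSeq windows were matched for 35 of the 44 genes, as 38 windows, and not for Col1a1, Col2a1, Col4a3, Col5a2, Col9a3, Col12a1, Col14a1, Col22a1 and Col26a1. The GC-box letters GGGCGG stood, on either strand, in 60.5% of the collagen windows and 35.7% of all 32851 windows of the same length. The collagen windows were also richer in G and C, with a median of 59.8% against 52.7% for all windows. The letters TATAAA stood in 13.2% of collagen windows and 13.6% of all windows, and CCAAT in 34.2% of collagen windows and 37.4% of all windows. The windows of Col4a1 and Col4a2 held GGGCGG and CCAAT, and G or C made up 74.0% of the Col4a1 window and 73.7% of the Col4a2 window. The Col3a1 window had 37.7% G or C and held TATAAA 117 bases before the gene start. These matches only describe the letters.

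Expected counts, which are estimated reads per gene, summed to 20681574 in library 2 and 25843064 in library 1. The libraries stood far apart: mitochondrially encoded genes took 12.6% of the TPM, a level corrected for transcript length and scaled to the same total in each library, in library 2 and 44.2% in library 1, and nuclear protein-coding genes 75.3% in library 2 and 31.3% in library 1. TPM values are therefore also given rescaled to the 21461 nuclear protein-coding genes. Ratios of single genes are log2 of library 2 over library 1, on counts scaled by TMM factors, with a standard error (SE) from counting alone. A gene was called higher or lower at a Benjamini-Hochberg adjusted p under 0.05 in a two-sided exact binomial test over 15705 genes together with a difference of at least 2-fold. Because 37.0% of all tested genes were called higher in library 2 and 28.2% lower, a call on a collagen gene says little by itself. The markers of the labelled tissue were present in both libraries: 5 epithelial markers summed to 6630 TPM in library 2 and 774 TPM in library 1 and 6 smooth muscle markers to 4791 TPM in library 2 and 327 TPM in library 1.

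Collagen RNA was found in both libraries, with Col3a1 as its most abundant gene in each. The 44 genes received 73477 of the counts of library 2, a share of 0.355% (95% Wilson interval 0.353 to 0.358%). In library 1 they received 38308 counts, a share of 0.148% (0.147 to 0.150%). Their summed level was 1075 TPM in library 2 and 436.1 TPM in library 1 (755 ± 452, mean ± SD, n = 2 technical libraries). On the nuclear protein-coding scale the sums were 1427 in library 2 and 1392 in library 1 (1409 ± 24.5), so the rescaled sums lay close together. The intervals cover counting error only. The libraries are technical replicates of 1 animal, so their difference is not a measure of cell numbers or of RNA per cell. Within a level from whole tissue, the number of cells of a type and the RNA per cell cannot be told apart.

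**Figure D1:**
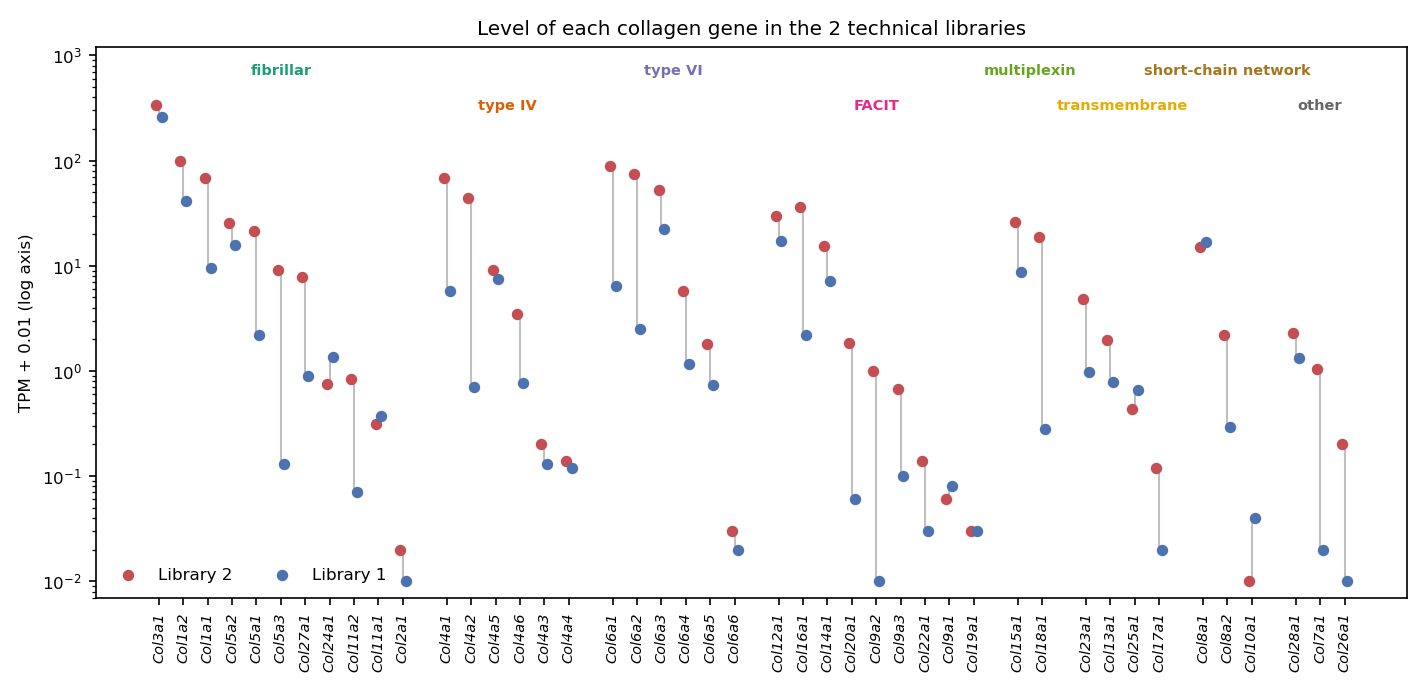
Level of each of the 44 collagen genes, as TPM plus 0.01 on a log axis, with library 2 in red and library 1 in blue; genes are grouped by class and ordered by mean level within it. Col3a1 lies at the top in both libraries, and the gap between the libraries is wide for genes such as Col4a2, Col5a3 and Col18a1 and narrow for Col3a1, Col4a5 and Col8a1.

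At least 1 TPM was reached by 28 of the 44 genes in library 2 and by 18 in library 1, and at least 10 TPM by 16 genes in library 2 and 6 in library 1. The order of the 44 levels was similar in both (Spearman rho 0.84 across genes, which share the animal and the annotation). The deposited TPM was greater in library 2 for 37 genes, greater in library 1 for 6 and equal for 1. In the test, 37 of the 44 genes had the mean count of at least 10 needed to enter. Of these, 22 were called higher in library 2, 4 lower and 11 neither, and their median log2 ratio was 1.503 against 0.12 over all genes tested. Over all genes tested, 37.0% were called higher and 28.2% lower. With 6 collagen genes left out that had under 10 counts in library 1, and so entered through library 2, 17 of 31 were higher. Of the 31, 4 were lower, and the median was 1.15. The shares over all genes were not reduced in this way. The ratio of deposited TPM, which has no test, was at least 2-fold higher in library 2 for 25 collagen genes and at least 2-fold lower for 0. Of all genes, 53.6% were at least 2-fold higher on that scale and 4.81% at least 2-fold lower.

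The fibrillar genes made up 52.9% of collagen TPM in library 2 and 76.0% in library 1, and summed to 568 TPM in library 2 and 331.5 TPM in library 1. On the nuclear protein-coding scale the order of the sums turned, at 754 in library 2 and 1058 in library 1. Of 10 tested, 5 were higher in library 2, 1 was lower and 4 were not called, beside 37.0% higher and 28.2% lower over all tested genes. The 5 include Col11a2, which had 9 counts in library 1. Col3a1, whose product alone forms type III collagen, the fine fibrils of distensible organs, had 334 TPM in library 2 and 260 TPM in library 1 (297 ± 52.6). Among the 21461 nuclear protein-coding genes Col3a1 ranked 324 in library 2 and 165 in library 1. It alone took 31.1% of collagen TPM in library 2 and 59.6% in library 1. Its log2 ratio of scaled counts was -0.35 ± 0.01 and it was not called. The sign depended on the scale: the log2 ratio was 0.36 on deposited TPM, and on the nuclear protein-coding scale its level was 444 in library 2 and 830 in library 1. Col3a1 lies on chromosome 1 from 45311538 to 45349706, 24614 bases from Col5a2 on the opposite strand.

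Type I collagen is the main fibril-forming collagen of most connective tissue and is built from the products of Col1a1 and Col1a2. Col1a2 had 99.6 TPM in library 2 and 41.1 TPM in library 1 (70.3 ± 41.3). Its log2 ratio was 0.31 ± 0.03, and it was not called. Col1a1 had 68.2 TPM in library 2 and 9.44 TPM in library 1 (38.8 ± 41.5). It was called higher in library 2, with a log2 ratio of 1.67 ± 0.04. The helix of type I collagen takes more of the Col1a1 chain than of the Col1a2 chain, while the TPM of Col1a1 was 0.685 times that of Col1a2 in library 2 and 0.230 times in library 1. Together with Col3a1 they made up 46.7% of collagen TPM in library 2 and 71.2% in library 1.

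Type V collagen sits inside type I fibrils and sets their width. Its Col5a2 chain had 25.7 TPM in library 2 and 15.9 TPM in library 1, with a log2 ratio of -0.46 ± 0.04 that was not called. Col5a1 had 21.4 TPM in library 2 and 2.20 TPM in library 1, and was called higher in library 2 at 2.11 ± 0.07. Col5a3, a less widespread type V chain, had 9.18 TPM in library 2 from 768 counts and 0.12 TPM in library 1 from 15 counts. It was 36.8-fold higher in library 2 on scaled counts. The chains of type V thus did not share a call. Col27a1, a fibrillar chain known from cartilage and other tissues, was called higher with 7.81 TPM in library 2 and 0.89 TPM in library 1. Col11a2 was called higher too (52 counts in library 2 and 9 in library 1), while Col11a1, its partner in the fibrils of cartilage, was called lower (32 counts in library 2 and 52 in library 1) and Col24a1 was not called. Col2a1, the major collagen of cartilage, had 1 count in library 2 and 0 in library 1. Of 4 cartilage markers, Acan, Matn1 and Cnmd had 0 counts in both libraries, and only Hapln1 had counts.

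**Figure D2:**
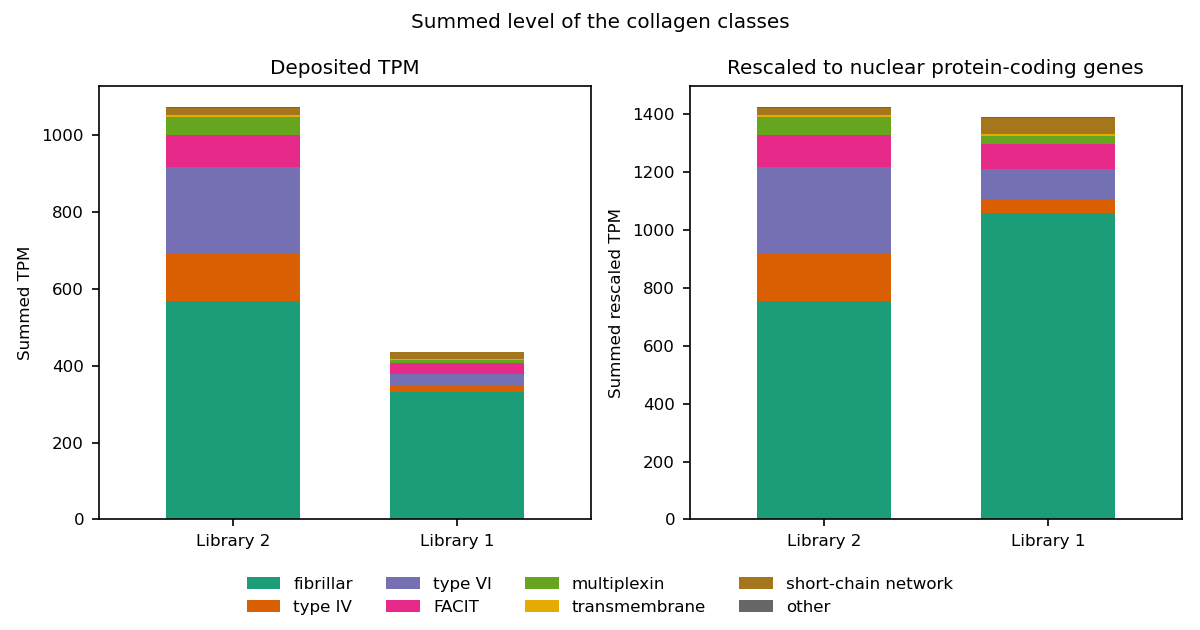
Summed level of the 8 collagen classes in library 2 (left bar) and library 1 (right bar), as deposited TPM in the left panel and rescaled to nuclear protein-coding genes in the right panel. The rescaled total is 1427 in library 2 and 1392 in library 1, with fibrillar genes at 754 in library 2 and 1058 in library 1 and type VI genes at 297 in library 2 and 106 in library 1.

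The type IV genes of the basement membrane summed to 125 TPM in library 2 and 15.0 TPM in library 1, which was 11.7% of collagen TPM in library 2 and 3.44% in library 1. Of the 6 genes, 3 were called higher, 1 lower and 2 neither, beside 37.0% higher and 28.2% lower over all tested genes. Col4a1 had 68.2 TPM in library 2 and 5.80 TPM in library 1 and a log2 ratio of 2.40 ± 0.05. Col4a2, on the other side of the overlapping promoter windows shown above, had 44.2 TPM in library 2 and 0.70 TPM in library 1, with a log2 ratio of 4.79 ± 0.14. Both were called higher, and the TPM of Col4a1 was 1.54 times that of Col4a2 in library 2 and 8.29 times in library 1. The shift of that count ratio was -2.39 ± 0.15 on the log2 scale, so the paired chains were not in a fixed proportion in the libraries.

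Col4a5 and Col4a6 encode the type IV chains of smooth muscle and epithelial basement membranes and lie head to head on the X chromosome, 1308 bases apart. Col4a5 had 9.13 TPM in library 2 and 7.54 TPM in library 1 and was not called (-0.27 ± 0.08). Col4a6 had 3.46 TPM in library 2 and 0.75 TPM in library 1 and was called higher at 1.03 ± 0.16. The chains known from the kidney filter, Col4a3 and Col4a4, lie 71 bases apart on chromosome 1 and were both under 1 TPM in each library. Col4a3 was called lower with 16 counts in library 2 and 25 in library 1 (adjusted p = 0.0297 in the exact binomial test), although its TPM was 0.19 in library 2 and 0.12 in library 1. A non-coding transcript gene on the opposite strand of Col4a3 had 11 counts in library 2 and 46 in library 1, and the counting's use of strand is not given in the sources used here.

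The type VI genes summed to 223.5 TPM in library 2 and 33.1 TPM in library 1, which was 20.8% of collagen TPM in library 2 and 7.59% in library 1. Of 5 tested, 4 were called higher and 0 lower, beside 37.0% higher and 28.2% lower over all tested genes. Col6a1 and Col6a2, neighbours on chromosome 10 whose products join the Col6a3 product in the common type VI filament, had 89.7 TPM (Col6a1) and 73.7 TPM (Col6a2) in library 2. In library 1 Col6a1 had 6.41 TPM and Col6a2 had 2.47 TPM. Their log2 ratios were 2.63 ± 0.06 for Col6a1 and 3.58 ± 0.09 for Col6a2. Col6a3 had 52.6 TPM in library 2 and 22.3 TPM in library 1, and was called higher at a log2 ratio of 1.503 ± 0.05, while on the nuclear protein-coding scale its level was 69.8 in library 2 and 71.2 in library 1. Its TPM was thus 0.586 times that of Col6a1 in library 2 and 3.48 times in library 1. Of the chains that can stand in for Col6a3, Col6a4 was called higher (5.72 TPM in library 2 and 1.16 TPM in library 1), Col6a5 was not called (1.80 TPM in library 2 and 0.73 TPM in library 1), and Col6a6 had 3 counts in library 2 and 2 in library 1.

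**Figure D3:**
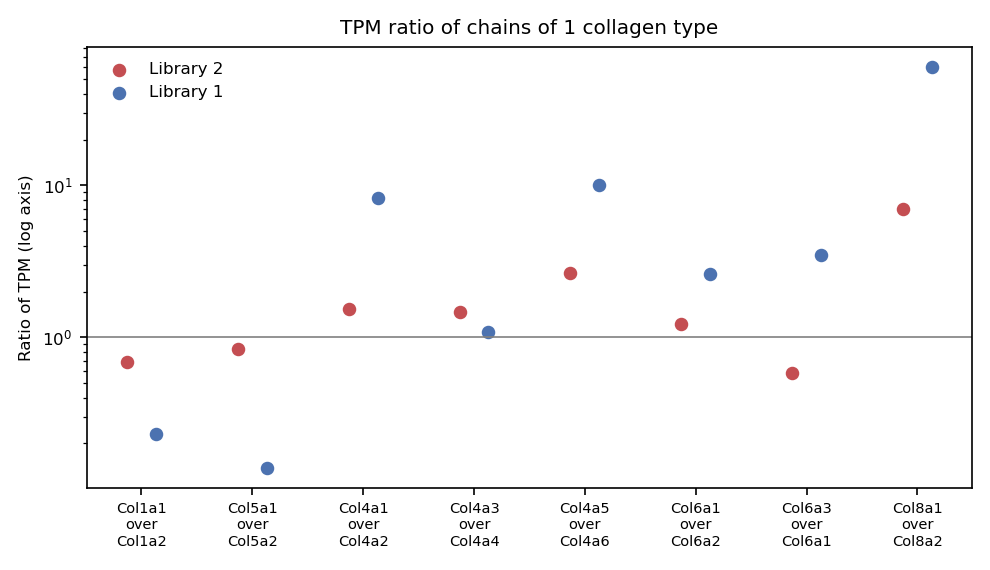
Ratio of the TPM values of 8 pairs of chains, on a log axis, with library 2 in red and library 1 in blue; the grey line marks equal levels. Col1a1 over Col1a2 lies at 0.685 in library 2 and 0.230 in library 1, Col4a1 over Col4a2 at 1.54 in library 2 and 8.29 in library 1, and Col8a1 over Col8a2 at 6.94 in library 2 and 60.1 in library 1.

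FACIT collagens summed to 85.0 TPM in library 2 and 26.6 TPM in library 1, with 4 of 7 tested genes called higher and 0 lower. Over all tested genes 37.0% were called higher and 28.2% lower. Of the FACIT genes called higher, Col9a2, Col20a1 and Col22a1 had under 10 counts in library 1 and so entered the test through library 2. Col16a1, found near fibrils and basement membranes, had 36.4 TPM in library 2 and 2.20 TPM in library 1. It was called higher with a log2 ratio of 4.70 ± 0.22. Col12a1 and Col14a1 encode fibril-surface collagens of dense connective tissue. Col12a1 had 29.4 TPM in library 2 and 17.1 TPM in library 1 (-0.57 ± 0.04), and Col14a1 had 15.5 TPM in library 2 and 7.14 TPM in library 1 (-0.52 ± 0.07). Neither was called. For Col12a1, Col14a1, Col5a2 and Col4a5, as for Col3a1, the deposited TPM was greater in library 2 although the scaled count was greater in library 1. The level of Col20a1 was 1.82 TPM in library 2 and 0.05 TPM in library 1, and Col20a1 was called higher. Col9a2, a chain of cartilage type IX collagen, had 39 counts in library 2 and 0 in library 1 and was called higher. That is at least 9.65-fold higher against a floor of 3 counts in library 1. Col9a1 and Col19a1 had too few counts to be tested, and Col22a1 was called higher with 16 counts in library 2 and 4 in library 1 (adjusted p = 0.0493, exact binomial test), near the threshold.

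The multiplexins Col15a1 and Col18a1, collagens of basement membrane zones whose ends can be released as fragments that act on vessels, were both called higher. Of all tested genes 37.0% were called higher and 28.2% lower. Col15a1 had 26.2 TPM in library 2 and 8.71 TPM in library 1 (1.56 ± 0.09). Col18a1 had 18.6 TPM in library 2 and 0.27 TPM in library 1, from 1213 counts in library 2 and 33 in library 1, with a log2 ratio of 4.75 ± 0.25. Slc19a1 overlaps Col18a1 on the opposite strand over 8825 bases and had 242 counts in library 2 and 11 in library 1. Col4a2 and Col18a1 were the 2 genes with at least 10 TPM in library 2 and under 1 TPM in library 1.

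The short-chain collagens took 1.61% of the collagen total in library 2 and 3.93% in library 1, and their sums were 17.3 TPM in library 2 and 17.1 TPM in library 1. On the nuclear protein-coding scale these sums were 23.0 in library 2 and 54.7 in library 1. Col8a1, which forms hexagonal nets around vessels and smooth muscle, had 15.1 TPM in library 2 and 16.8 TPM in library 1 (16.0 ± 1.20). It was called lower at -1.32 ± 0.05, the only gene with a mean of at least 5 TPM that was in this test. Its partner Col8a2 was called higher (2.18 TPM in library 2 and 0.28 TPM in library 1). Col10a1, the collagen of growth-plate cartilage, had 0 counts in library 2 and 2 in library 1 and lies within Nt5dc1 on the opposite strand.

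Of the transmembrane genes, Col23a1 (4.79 TPM in library 2 and 0.96 TPM in library 1) and Col13a1 (1.96 TPM in library 2 and 0.78 TPM in library 1) were called higher, and Col25a1 (0.42 TPM in library 2 and 0.65 TPM in library 1) was called lower. Col17a1, which anchors skin-type epithelium in hemidesmosomes, had 6 counts in library 2 and 1 in library 1. Col7a1, which forms the anchoring fibrils of skin, had 71 counts in library 2 and 2 in library 1 and was called higher, at 26.4-fold (95% exact interval 7.03 to 222). The markers Krt5 and Krt14 of stratified squamous epithelium stood at 0.17 TPM (Krt5) and 0.83 TPM (Krt14) in library 2 and had 0 counts in library 1. The other 2 markers of that list had counts in both: Krt10 had 57 counts in library 2 and 69 in library 1 and was not called, and Krt1 had 2 counts in library 2 and 3 in library 1. Col28a1, most often described in glia of peripheral nerve, had 2.27 TPM in library 2 and 1.32 TPM in library 1 and was not called. Col26a1 had 7 counts in library 2 and 0 in library 1. Under 1 TPM in both libraries were 15 of the 44 collagen genes.

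The ratio between the libraries moved with the base composition of the transcripts, for collagens as for other genes. Over the 37 collagen genes tested, GC content and the log2 ratio had a Pearson r of 0.83 and a Spearman rho of 0.86, and over 15658 tested genes with a GC value these were 0.84 and 0.90. These correlations run across genes of the same 2 libraries and are descriptions. The tested collagen transcripts had a median GC content of 55.1%, against 49.9% for all genes, with a range of 45.6 to 63.4%. Of the 18 genes above the collagen median, 16 were called higher and 0 lower, with a median log2 ratio of 2.52. Of the 19 at or below it, 6 were called higher and 4 lower, with a median of -0.35. Among the 16, Col7a1, Col9a2, Col11a2 and Col20a1 had under 10 counts in library 1, as did Col22a1 among the 6. Over all tested genes of any GC content 37.0% were called higher and 28.2% lower. The share among all genes of like GC content was not determined. Within type V, Col5a2 had 49.4% GC, Col5a1 58.02% and Col5a3 61.5%, the same order as their log2 ratios. Within type VI, Col6a3 had 50.1%, Col6a1 56.7% and Col6a2 59.1%, again the same order. Col4a1 had 57.7% and Col4a2 60.6%. These GC values are weighted by TPM, and a 646-base transcript took 84.6% of the Col6a3 TPM in library 1 from 23.7% of its counts. With length the relation was weaker, with an r of -0.27 for collagens and -0.24 for all genes.

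**Figure D4:**
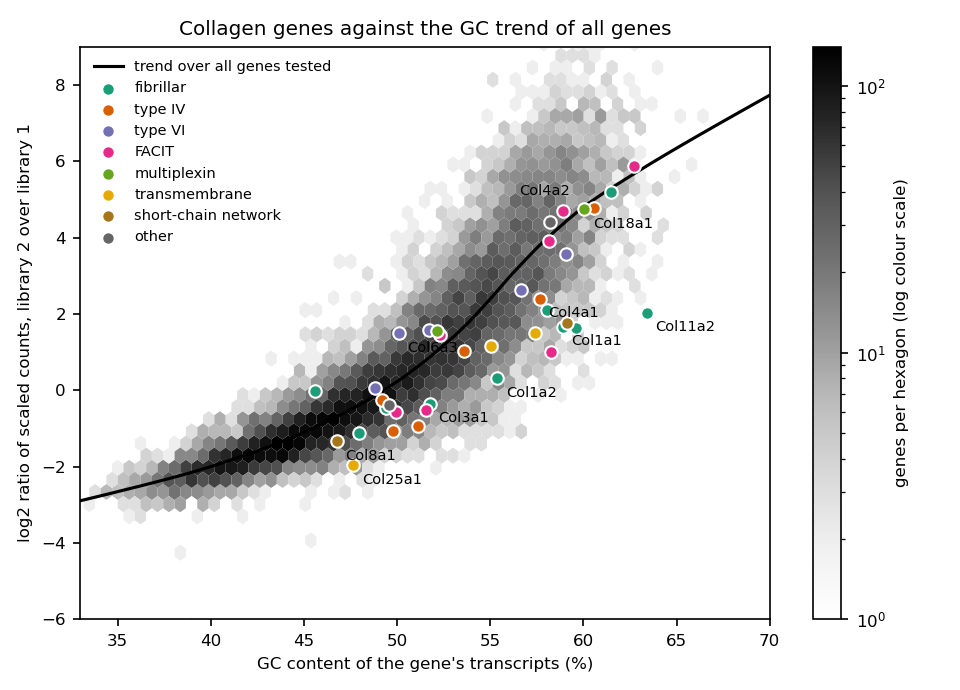
GC content of each gene's transcripts in percent against its log2 ratio of scaled counts, library 2 over library 1; grey hexagons are all genes tested, the line is their smoothed trend, and coloured points are the 37 collagen genes. Col4a2 and Col18a1 lie close to the trend, Col1a1, Col1a2 and Col11a2 lie well below it, and Col6a3 lies above it.

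With the GC trend of all genes taken off, 18 of the 37 log2 ratios of collagen genes turned their sign. Then 1 gene was called higher, Col6a3 at 1.24, and 15 were called lower, with a median of -0.67 against -0.01 over all genes. The value of Col6a3 rests on its TPM-weighted GC content, whereas its ratio uses counts, most of them from a 9001-base transcript. With the same trend removed, 12.5% of all tested genes were called higher and 11.3% lower. Of the 22 genes called higher before, 8 were called lower after. Fibrillar genes held 6 of the 15, among them Col1a1 at -2.68, Col1a2 at -2.30, Col5a1 at -1.87 and Col3a1 at -1.23. Type IV held 3, among them Col4a1 at -1.42. In contrast Col4a2 (-0.20), Col18a1 (-0.069), Col5a3 (-0.088) and Col16a1 (0.33), whose log2 ratios before were 4.70 to 5.20, were not called. Col8a1, called lower before, was at -0.63 and not called. The share of codons in the whole coding sequence with G or C as the last base had a Pearson r of 0.64 with the log2 ratio over the 37 genes. Whether base composition, or something that moves with it, produced the difference was not tested.

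**Figure D5:**
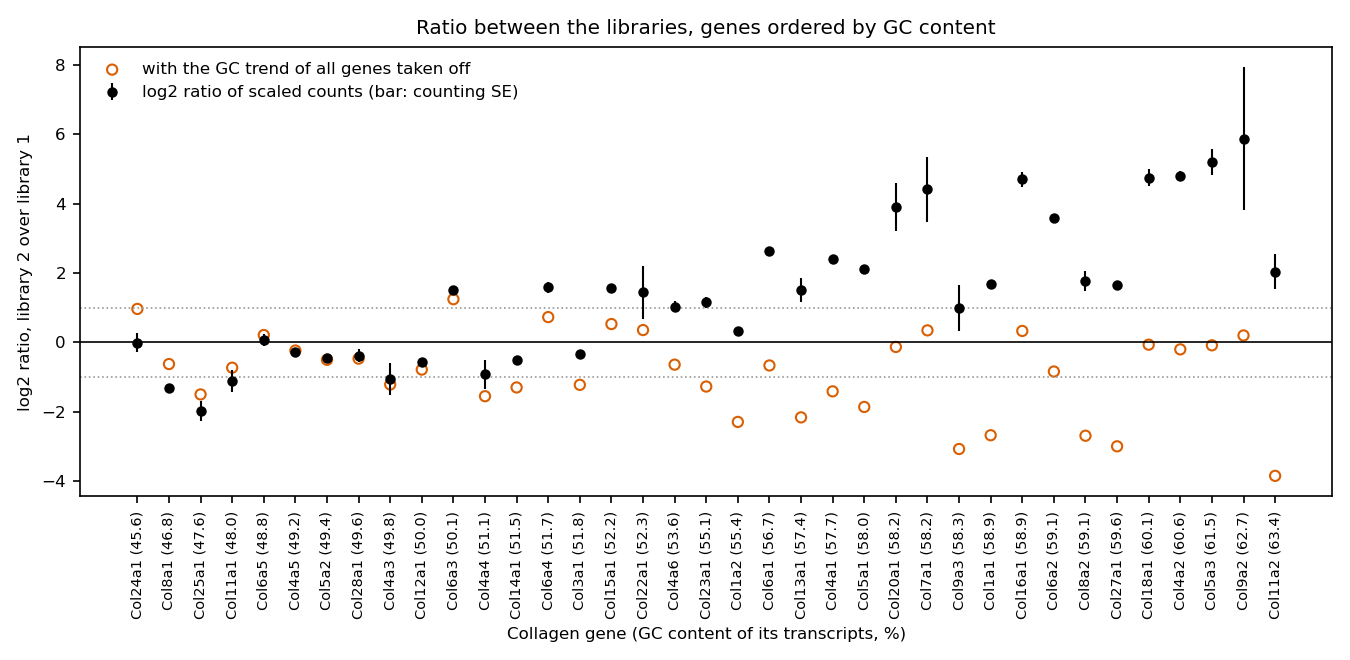
Log2 ratio of scaled counts, library 2 over library 1, for the 37 tested collagen genes ordered by GC content (in brackets, percent); black points carry counting SE and orange circles have the GC trend of all genes taken off. Black points lie higher at higher GC content, at 5.20 for Col5a3, while orange circles lie mostly below 0, with a median of -0.67.

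Levels of some genes rested on short transcripts in the deposited models. Col6a3 owed 50.5% of its TPM in library 2 and 84.6% in library 1 to a 646-base transcript with a retained intron, from 5.33% of its counts in library 2 and 23.7% in library 1. The 9001-base coding transcript of Col6a3 had 23.8 TPM in library 2 and 3 TPM in library 1. Of Col3a1, a 737-base coding model took 20.7% of the TPM in library 2 and 46.0% in library 1, from 2.67% of the counts in library 2 and 8.03% in library 1. The 5564-base transcript had 261 TPM in library 2 and 140 TPM in library 1. Of Col15a1, the 5172-base transcript took 57.1% of TPM in library 2 and 0.57% in library 1, and a 1755-base one 41.1% in library 2 and 95.4% in library 1. Of Col16a1, an 833-base transcript without a coding sequence took 35.6% in library 2 and 96.2% in library 1. Of Col4a5, a 3511-base transcript took 29.95% in library 2 and 97.6% in library 1. In these genes the short model took the greater share in library 1, but the direction differed in the other 4 genes examined. A 1784-base model of Col12a1 took 57.9% in library 2 and 51.7% in library 1, and a 2085-base model of Col14a1 took 54.7% in library 2 and 20.7% in library 1. Of Col6a2, a 3949-base model took 82.9% in library 2 and 27.9% in library 1, and a 4653-base one 13.4% in library 2 and 57.7% in library 1. Of Col18a1, a 1956-base model took 11.9% in library 2 and 0% in library 1, and a 5063-base one 73.6% in library 2 and 90.5% in library 1. The gene TPM of these members depends on such assignments, while the count of a gene does not depend on how its reads were split among its own transcripts.

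Genes that make, process and bind collagen differed between the libraries in both directions, as tested genes in general did. Of 42 genes listed, 41 were tested, 22 were called higher in library 2 and 8 lower, with a median log2 ratio of 1.25. Over all tested genes 37.0% were called higher and 28.2% lower. Some genes of the list had under 10 counts in library 1 and so entered through library 2. Of these, P3h3, P3h4, Fkbp10, Loxl4, Adamts14, Mrc2 and Itga11 were called higher, and Gp6 was not called. They were not left out of these counts. With the GC trend removed 5 of the 41 were higher and 6 lower, with a median of -0.02. Over all tested genes 12.5% were then called higher and 11.3% lower. Of 19 genes for modification and secretion, 11 were higher and 2 lower. Ppib, a proline isomerase of the collagen modification complex, had 358 TPM in library 2 and 64.6 TPM in library 1. P4hb, a subunit of the enzyme that hydroxylates proline, had 310 TPM in library 2 and 55.8 TPM in library 1, and Serpinh1, the collagen chaperone, had 84.5 TPM in library 2 and 10.7 TPM in library 1; all 3 were called higher. Mia2, which helps to load large cargo for secretion, had 70.2 TPM in library 2 and 133 TPM in library 1 and was called lower. The related Mia3 was not called (177 TPM in library 2 and 131 TPM in library 1). Colgalt1, which adds a sugar to hydroxylysine, was not called (37.6 TPM in library 2 and 12.8 TPM in library 1). Plod2, which hydroxylates lysine in the chain ends, was the called gene of the list with the lowest ratio, -1.90, at 11.6 TPM in library 2 and 17.9 TPM in library 1.

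Of 12 tested genes for processing and cross-linking, 7 were higher and 2 lower, beside 37.0% higher and 28.2% lower over all tested genes. Adamts14, which removes the leading end of procollagen, had 50 counts in library 2 and 0 in library 1, at least 12.4-fold higher against the floor of 3 counts. Of 10 receptors, 4 were higher and 4 lower. The 4 higher include Mrc2 and Itga11, each with 7 counts in library 1. Itgb1, the beta chain shared by the collagen-binding integrins, was the most abundant, with 155 TPM in library 2 and 200 TPM in library 1, and was called lower at -1.54. Ddr1, a receptor kinase of epithelium that binds collagen, had 52.4 TPM in library 2 and 2.44 TPM in library 1 and was called higher.

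Marker genes of the cells that make collagen moved in different directions, beside 37.0% of all tested genes called higher and 28.2% lower. Of 6 fibroblast markers, 1 was called higher and 2 lower, and the sum was 538 TPM in library 2 and 442 TPM in library 1. On the nuclear protein-coding scale the order turned, at 713 in library 2 and 1411 in library 1. Dcn, the most abundant, had 261 TPM in library 2 and 257 TPM in library 1 (rescaled, 346 in library 2 and 821 in library 1) and was called lower at -1.13. All 6 smooth muscle markers were called higher, as were 2 of 5 blood endothelial markers and 3 of 5 epithelial markers, while 1 endothelial marker was lower. The enteric glial sum was 13.3 TPM in library 2 and 4.41 TPM in library 1, with 3 of 4 higher and 1 lower. The 3 adipocyte markers summed to 137 TPM in library 2 and 9.60 TPM in library 1, with 2 higher. The 4 mesothelial markers summed to 7.67 TPM in library 2 and 1.37 TPM in library 1, with 2 higher and 1 lower. The 3 skeletal muscle markers summed to 30.9 TPM in library 2 and 0.03 TPM in library 1, and Myh4 had 0 counts in both. Of the markers called higher, Sox10, S100b, Cfd, Plin1, Msln, Ckm and Acta1 had under 10 counts in library 1. These markers so entered the test through library 2. The part that these cells play in the collagen values was not tested.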

How the data were processed

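Poly(A) RNA of 1 mouse was measured in 2 technical libraries. Per the text files deposited beside the tables, the authors used assembly mm10 with annotation M4 and alignments to the transcriptome; the aligner, the counter and the use of strand were not given in the sources used here. Per the file headers, the deposited tables hold expected counts, TPM, FPKM and, for transcripts, a percent share within the gene. The gene-level TPM has a posterior mean TPM beside it in the deposited tables. Gene names came from a table that matched 42462 genes. Positions, transcripts and GC content came from GENCODE M21, and 99.7% of the genes tested had a GC value, weighted over transcripts by TPM.

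Expected counts were rounded. With 1 library a side edgeR's quasi-likelihood test cannot be used, so library sizes came from TMM (edgeR 4.0.16, R 4.3.3) and each gene with a mean count of at least 10 entered a two-sided exact binomial test (scipy 1.17.1) with Benjamini-Hochberg adjustment. Log2 ratios used a prior count of 0.5, and log2 ratios of TPM a pseudocount of 0.1. The GC trend was a lowess fit (fraction 0.2). Tests were tested on simulated data. The rule for the members uses no measured value, but the family, the lists and the tests were chosen with earlier results of these data known. All 44 collagen genes could be named. Of the pathway list the 8 most abundant and the called genes with the largest and smallest ratio could be named. Tested genes of that list with under 10 counts in library 1 were named as well. Transcripts were described for members with a mean of at least 5 TPM. Alternatives were DESeq2 1.42.0 size factors, other filters, units, thresholds and trends. The difference between libraries of 1 animal is technical, so p-values measure only these libraries.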

Additional observations from a re-analysis of the deposited data

How the results depend on the processing

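The count of 22 collagen genes higher in library 2 stayed within 1.5 times except at 4-fold, where it was 12, and with the GC trend removed, where it was 1. The count of 4 lower was 2 with library size over nuclear protein-coding genes, 2 at a mean count of at least 50, 2 with the length trend removed, 0 by TPM ratio, 0 at 4-fold and 15 with the GC trend removed. For the making and binding list, 22 higher became 5 with the GC trend removed, and 8 lower became 0 by TPM ratio and 0 at 4-fold. The median log2 ratio of 1.503 was 1.77 with nuclear protein-coding library size, 1.30 with no count filter, 2.00 by TPM ratio, 0.91 by nuclear protein-coding TPM ratio, 1.30 with a prior count of 5 and -0.67 with the GC trend removed. The median over all genes was 0.12, 0.38 with nuclear protein-coding library size, 1.18 by TPM ratio, -0.02 by nuclear protein-coding TPM ratio and -0.23 with the length trend removed. The mean summed level of 755 TPM was 1409 on the nuclear protein-coding scale, 1075 without replicate 1 and 436.1 without replicate 2.

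With the GC trend removed the sign turned for Col1a1 (-2.68), Col1a2 (-2.30), Col4a1 (-1.42), Col4a2 (-0.20), Col4a6 (-0.65), Col5a1 (-1.87), Col5a3 (-0.088), Col6a1 (-0.67), Col6a2 (-0.84), Col8a2 (-2.70), Col9a3 (-3.08), Col11a2 (-3.85), Col13a1 (-2.17), Col18a1 (-0.069), Col20a1 (-0.13), Col23a1 (-1.28), Col27a1 (-3.001) and Col24a1 (0.96). By TPM ratio it turned for Col3a1 (0.36), Col4a3 (0.40), Col4a4 (0.13), Col4a5 (0.27), Col5a2 (0.69), Col12a1 (0.78), Col14a1 (1.11) and Col28a1 (0.74). By nuclear protein-coding TPM ratio it turned for Col6a3 (-0.030), and with nuclear protein-coding library size for Col24a1 (0.25). The cause was not tested. Genes near a threshold, such as Col4a3, Col4a6 and Col22a1, lost their call under several settings. The 7 untested genes had at most 7 counts in library 2 and 5 in library 1, so differences in them were not detectable at this depth. No paired analysis was possible because there is 1 group.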
